A study of Mus musculus with 8 samples.

Results

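The 10 transcription factors described here, Tbx2, Tbx3, Tbx4, Tbx5, Foxf1, Foxf2, Meox2, Twist1, Prrx1 and Osr1, were taken by symbol from a set proposed for the fetal lung mesenchyme, and each matched 1 of the 55385 gene IDs counted. RNA came from whole lungs of C57BL/6 mouse fetuses at E18.5, 4 control lungs and 4 lungs after tracheal occlusion (TO). For TO, a ligature was passed through the uterine wall at E16.5 and tied around the fetal trachea, taking in the carotid artery and the jugular vein of 1 side, and the dams received progesterone the day after. The labels do not say whether the control fetuses were operated on, or whether the lungs of a group came from separate litters, so p-values measure the spread between these lungs, which may in part be technical. Read pairs counted on genes numbered 22822261 in control 1, 30768440 in control 2, 32382284 in control 3, 24511486 in control 4, 35002061 in TO 2, 24494782 in TO 3 and 34390241 in TO 4, but 270078 in TO 1. At that depth TO 1 held 3 reads of Twist1, 3 of Osr1 and 86 of Tbx2, so its values are coarse. The comparison of TO with control used controls 1, 2 and 4 and TO 2, 3 and 4, the lungs of the study's own comparison. Control 3 and TO 1 are given beside them, and each library's level is in counts per 1000000 (CPM) after TMM scaling.

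T-box and forkhead proteins bind DNA through the domain that names each family, and several of them pattern the mesoderm that surrounds the lung epithelium. In the lung mesenchyme, Tbx4 and Tbx5 act upstream of Fgf10 during branching, Tbx2 and Tbx3 are repressors that keep the mesenchyme proliferating, and Foxf1 and Foxf2 are induced by hedgehog signals from the epithelium. Meox2 and Prrx1 are homeobox proteins, Twist1 is a basic helix-loop-helix protein of mesenchymal cells, and Osr1 is a zinc finger protein needed in the early foregut mesoderm. The lungs were homogenised whole, so fewer cells of a type and less RNA per cell cannot be told apart. All 20 stromal markers were detected, though Tagln was at 0 in TO 1 and at 0.694 CPM at most elsewhere. Their sum lay between 17342 CPM (control 1) and 25656 CPM (control 3) over the 8 libraries. Endothelial and epithelial markers were detected too, so the counts do not assign a factor to a cell type.

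All 10 factors were among the 21859 genes tested, and none differed between TO and control lungs at an adjusted p of 0.1 by edgeR's quasi-likelihood test, the count also found for all genes (0%). At an unadjusted p under 0.05, 1 factor, Prrx1, was higher in TO lungs and 0 were lower, beside 671 higher genes (3.07%) and 452 lower genes (2.07%) of all those tested. DESeq2, the tool of the study, called 0 factors among 44 genes (0.201%), with Prrx1 and Osr1 higher at an unadjusted p under 0.05, beside 3.89% of genes. By limma-voom the adjusted counts were 0 factors and 0 genes (0%), with Prrx1 higher at an unadjusted p under 0.05, beside 3.22% of genes. With control 3 added, 0 factors had an unadjusted p under 0.05 by edgeR, beside 1.26% of genes higher and 0.737% lower. Same-numbered control and TO libraries also share a number in their specimen names, and controls 1 and 4 have the same one as TO 1 and TO 4. What it stands for is not given in the sources used here. With that number as a block in the 6 libraries, edgeR again called 0 factors and 0 genes (0%). At an unadjusted p under 0.05 in this edgeR fit, Prrx1 (unadjusted p = 0.00393) and Osr1 (unadjusted p = 0.0137) were higher, beside 3.78% of genes, and Tbx2 (unadjusted p = 0.0358) was lower, beside 2.51%. TO 3 has no control of its specimen number among these 6, and its Tbx2 was higher by 0.31 than that of control 3 (log2 CPM, no test). With that block in all 8 libraries the edgeR unadjusted p was 0.0109 for Prrx1, 0.079 for Osr1 and 0.224 for Tbx2. With the replicate number as a block in the 6, edgeR called 219 genes and 0 factors, with 1 residual degree of freedom and an adjusted p of 0.101 for Prrx1. With no block, edgeR called 52 genes without control 4 and 144 without TO 4, with 0 of the 10 factors in either.

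Levels of 2 factors, Prrx1 and Osr1, were higher in each of the 3 TO libraries than in any of the 3 controls, and 0 factors were lower without overlap. Over all genes tested, 5.06% were higher and 5.82% were lower without overlap. With control 3 added, the same 2 factors did not overlap, beside 2.26% of genes higher and 1.68% lower. With all 8 libraries 1 factor, Prrx1, did not overlap, beside 0.714% of genes higher and 1.29% lower. Its level in TO 1 rests on 15 reads. The fold changes of 5 factors were above 0 and those of 5 below, with a median of 0.02 on the log2 scale, against -0.00449 over all genes. In all 8 libraries the median of the 10 was -0.08.

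**Figure D1:**
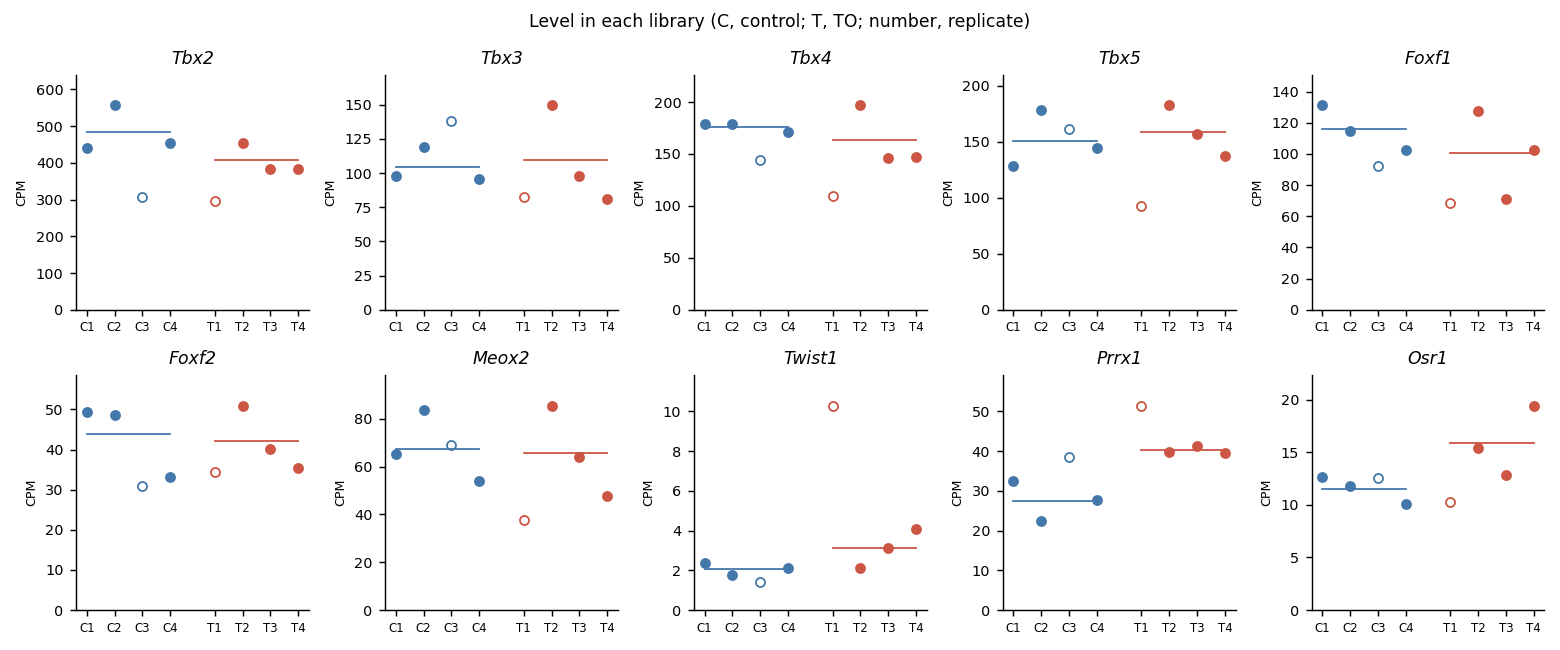
Level of each factor in CPM (vertical axes, starting at 0) in the 4 control (blue) and 4 TO (red) libraries. Filled points are the 6 libraries compared and lines their group means, and open points are control 3 and TO 1. Prrx1 ranges from 22.5 to 38.6 CPM in control and from 39.7 to 51.5 CPM in TO libraries.

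Tbx2 (chr11:85832551-85841948, plus strand, GRCm38) was the most abundant of the 10. Its level was 441, 557, 308 and 455 CPM in controls 1 to 4 and 295, 455, 383 and 383 CPM in TO 1 to 4. Control 2 was the highest library and TO 1 and control 3 the lowest, and the groups overlapped. In the 6 libraries the mean was 484 ± 63.4 CPM in control and 407 ± 41.6 CPM in TO lungs (SD, n = 3 each). The log2 fold change was -0.25 ± 0.13 (SE; adjusted p = 0.907, edgeR), and -0.11 ± 0.19 with control 3 added.

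Tbx3 (chr5:119670669-119684724, plus strand), the closest relative of Tbx2, was at 97.9, 119, 138 and 95.7 CPM in controls 1 to 4. In TO 1 to 4 it was at 82.4, 150, 98.0 and 81.0 CPM. TO 2 held the highest value and TO 4 the lowest, so the TO lungs spanned the control range. TO differed from control by 0.07 ± 0.21 on the log2 scale (SE; adjusted p = 0.982, edgeR), and the sign turned without TO 2, at -0.22, with control 3 added, at -0.04, and in all 8 libraries, at -0.10.

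Tbx4 (chr11:85886422-85916097, plus strand), a lung and hindlimb activator, stood at 179, 179, 145 and 171 CPM in controls 1 to 4. Its TO values were 110, 197, 146 and 147 CPM. The 3 compared controls lay within 171 to 179 CPM, and the TO lungs lay on both sides of them. On the log2 scale TO differed by -0.11 ± 0.13 (SE; adjusted p = 0.951, edgeR). With 1 library left out this ran from -0.27 without TO 2 to -0.02 without TO 3, and it was -0.04 with control 3 added.

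Tbx5 (chr5:119832668-119885219, plus strand), which acts with Tbx4 in the lung and is also made by atrial muscle, was at 128, 178, 161 and 144 CPM in controls 1 to 4. The TO libraries held 92.7, 183, 157 and 137 CPM. Libraries of both groups were mixed along the range, with TO 1, the shallow library, lowest. The log2 fold change was 0.08 ± 0.15 (SE; adjusted p = 0.975, edgeR), but -0.06 ± 0.18 in all 8 libraries, -0.02 without control 1 and -0.03 without TO 2.

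Atrial muscle markers (Nppa, Sln, Myl7, Myl4, Bmp10, Myh6, Nkx2-5 and Kcnj3) were read beside Tbx5, since atrial muscle makes both. Their summed level was 407, 248, 2620 and 2107 CPM in controls 1 to 4 and 1957, 1535, 2397 and 1976 CPM in TO 1 to 4. Controls 1 and 2 stood far below the other libraries, and the most abundant of the markers was Myh6, the cardiac alpha myosin heavy chain. Nppa, the atrial natriuretic peptide, was at 0.438 and 1.59 CPM in controls 1 and 2 and at 41.2 CPM or more in the other 6 libraries. All 8 markers had fold changes above 0 (median 1.27 on the log2 scale), 0 of 8 passed the adjusted threshold by edgeR or DESeq2, and 0 had an unadjusted p under 0.05. Control 2, with the lowest atrial sum, held 178 CPM of Tbx5, and control 1, with the next lowest, held 128 CPM, the lowest Tbx5 level of the 7 deep libraries. Tbx20, a T-box factor of the heart, was at 20.3 and 11.3 CPM in controls 1 and 2 and at 81.4 and 104 CPM in controls 3 and 4, against 151, 59.1, 78.5 and 118 CPM in TO 1 to 4. The part of atrial RNA in the Tbx5 level itself was not tested.

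**Figure D2:**
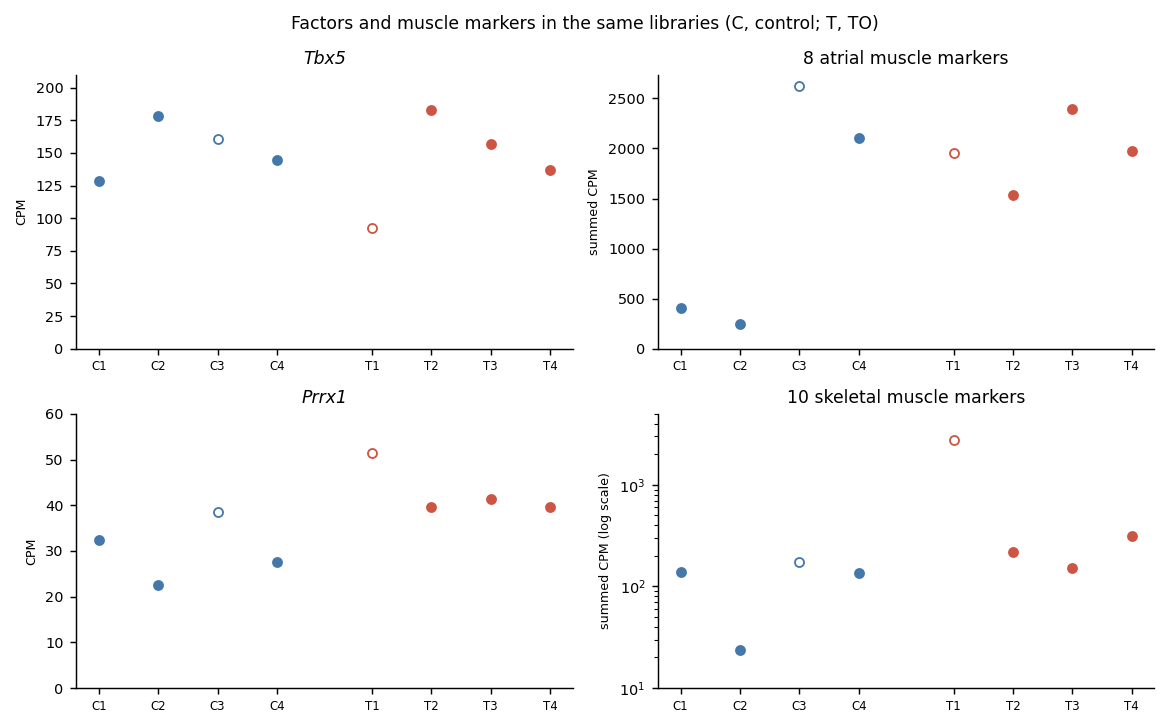
Tbx5 and Prrx1 in CPM (left) beside the summed CPM of atrial and of skeletal muscle markers (right; the skeletal axis is a log scale) in each library, controls in blue and TO in red, open points for control 3 and TO 1. The atrial sum is lowest in controls 1 and 2, at 407 and 248 CPM, where Tbx5 is at 128 and 178 CPM.

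Within a library, the ratio of paralogues does not depend on the scaling between libraries. Per length of exon, Tbx2 exceeded Tbx3 on the log2 scale by 3.04, 3.10, 2.02 and 3.12 in controls 1 to 4 and by 2.71, 2.47, 2.83 and 3.11 in TO 1 to 4. Control 3 had the smallest excess of Tbx2, so the difference between the group means was -0.28 in the 6 libraries (exact two-sided permutation p = 0.3, 0.45 adjusted over 3 ratios) and -0.01 with control 3 added. The Tbx4 to Tbx5 ratio was 0.94, 0.47, 0.30 and 0.70 in controls 1 to 4 and 0.70, 0.57, 0.36 and 0.56 in TO 1 to 4, again on the log2 scale. Tbx4 was thus above Tbx5 per length in all 8 libraries, and the groups overlapped (difference -0.21, exact permutation p = 0.3, 0.45 adjusted). That difference ran from -0.33 without control 2 to -0.09 without control 1, and was -0.11 with control 3 added. No comparison of 3 with 3 lungs can give an exact p below 0.1.

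Together Tbx2, Tbx3, Tbx4 and Tbx5 made up between 84.0% (control 3) and 92.4% (control 2) of the length-scaled level of all 17 T-box genes in the 7 deep libraries. They sit in neighbouring pairs on the genome, Tbx2 with Tbx4 on chromosome 11, and Tbx3 with Tbx5 on chromosome 5, 147943 bases apart. Among the other 13 T-box genes, 7 were tested, 6 with fold changes above 0 and 1 below, and 0 passed the adjusted threshold by edgeR or DESeq2. Their median was 0.29 on the log2 scale. The most abundant were Mga (-0.00367 ± 0.12, log2 fold change with SE), Tbx20 (0.92 ± 0.68) and Tbx1 (0.03 ± 0.17). Tbx15, a factor of limb and trunk mesenchyme, was at 0.481, 0.0325, 0 and 0.283 CPM in controls 1 to 4 and at 13.7, 0.781, 0.620 and 2.16 CPM in TO 1 to 4, the 1 gene of this list with an unadjusted p under 0.05, from 11, 1 and 7 reads in the compared controls. Tbx19 and Eomes had no read in any library.

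Foxf1 (chr8:121084386-121088144, plus strand), a forkhead factor needed for the lung capillary bed, was at 131, 115, 92.2 and 102 CPM in controls 1 to 4. It stood at 68.7, 128, 71.0 and 103 CPM in TO 1 to 4. TO 1 and TO 3 were the lowest libraries, and TO 2 and TO 4 lay among the controls. The log2 fold change was -0.21 ± 0.20 (SE; adjusted p = 0.936, edgeR), and 0.00265 without TO 3, so the direction rested on that library.

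Foxf2 (chr13:31625816-31631403, plus strand), its paralogue, was at 49.5, 48.6, 31.0 and 33.2 CPM in controls 1 to 4. Its TO values were 34.3, 51.0, 40.1 and 35.3 CPM. Controls 1 and 2 and TO 2 formed the top of the range, and the groups overlapped. For Foxf2 the log2 fold change was -0.05 ± 0.19 (SE; adjusted p = 0.982, edgeR), and 0.06 with control 3 added. Its sign also turned without control 1 (0.05), without control 2 (0.03) and without TO 4 (0.06). The log2 ratio of Foxf1 to Foxf2 per length was 1.37, 1.20, 1.54 and 1.59 in controls 1 to 4 and 0.97, 1.29, 0.79 and 1.51 in TO 1 to 4. TO 3 was lowest, the groups overlapped, and the difference of -0.19 (exact two-sided permutation p = 0.6, also 0.6 adjusted) was 0.00970 without TO 3.

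The counts of this pair are understated by the annotation. A gene model of 98 bases typed as a microRNA lies on the opposite strand within exon 1 of each, inside the coding sequence, Gm27530 at chr8:121084609-121084706 and Gm27516 at chr13:31626446-31626543. Without strand, a read pair that touches 2 genes is counted for neither. In the unstranded counts the models held 0 pairs in every library, while the counts by strand gave Gm27530 1522 and 1449 pairs and Gm27516 730 and 777 pairs over the 8 libraries. For Foxf1 these sum to the 2971 pairs that its unstranded count lacks. For Foxf2 they sum to 1507 of 2140, and 633 are not shown by the model. 1700018A04Rik, 23 bases before Foxf2 on the opposite strand, lacks 640 pairs in the same way. The near-equal numbers on the 2 strands are those of a library kit that does not mark strand. The coding strand under the models is printed 5′ to 3′, beginning at codon 71 of Foxf1 and codon 123 of Foxf2 (GENCODE M21, GRCm38), with the bases that differ between the genes in capitals.
Foxf1: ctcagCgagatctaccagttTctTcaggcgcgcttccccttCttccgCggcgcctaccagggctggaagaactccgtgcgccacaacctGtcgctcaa
Foxf2: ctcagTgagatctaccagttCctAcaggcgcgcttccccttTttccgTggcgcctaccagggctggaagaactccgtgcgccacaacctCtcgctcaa
Of the 98 bases 92 were identical (93.9%), and all 6 differences fell on the third position of a codon. Summed over both strands, the counts exceeded the unstranded ones by 13.8% for Foxf1 and 25.6% for Foxf2. By library the quotient ran from 1.11 (TO 4) to 1.21 (TO 3) for Foxf1 and from 1.17 (control 2) to 1.34 (control 4) for Foxf2 in the 7 deep libraries. Tbx3, which shares 115 exon bases with Tbx3os1 on the opposite strand, gained 7.5%. The other 7 factors shared no exon base with another gene.

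Foxf1 and Foxf2 made up between 14.9% (TO 3) and 22.5% (control 1) of the length-scaled level of all 42 forkhead genes in the deep libraries. Of the other 40, 28 were tested, 17 with fold changes above 0 and 11 below (median 0.07, log2), and 0 passed the adjusted threshold by edgeR or DESeq2. The most abundant were Foxo3 (0.09 ± 0.10, log2 fold change with SE), Foxp1 (0.08 ± 0.10) and Foxp2 (-0.65 ± 0.23, unadjusted p = 0.0189). Foxp2, an epithelial forkhead repressor, was at 233, 176, 107 and 164 CPM in controls 1 to 4 and 89.3, 92.1, 107 and 167 CPM in TO 1 to 4. Its low libraries were TO 1, TO 2, TO 3 and control 3, and the groups overlapped at TO 4. Foxc2, the other gene with an unadjusted p under 0.05, was at 1.66, 1.50, 3.93 and 3.64 CPM in controls 1 to 4 and 3.43, 3.99, 5.74 and 5.0 CPM in TO 1 to 4. No read fell on Foxb1, Foxb2, Foxd3, Foxd4, Foxe3, Foxi2 or Foxi3.

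Fendrr, a long noncoding RNA of lateral mesoderm, starts 1275 bases from Foxf1 on the opposite strand. Its level was 195, 264, 176 and 192 CPM in controls 1 to 4 and 65.2, 212, 148 and 170 CPM in TO 1 to 4. As for Foxf1, TO 1 and TO 3 were the lowest libraries, but the highest was control 2 for Fendrr and control 1 for Foxf1. Between TO and control its log2 fold change was -0.30 ± 0.17 (SE; adjusted p = 0.907, edgeR).

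Hedgehog genes were read beside the forkhead pair, since hedgehog signalling induces both. Of 12 genes, all tested, 8 had fold changes below 0 and 4 above, with a median of -0.15 on the log2 scale in the 6 libraries and -0.04 in all 8. At an unadjusted p under 0.05, 3 were lower and 0 higher, beside 2.07% and 3.07% of all genes, and 0 passed the adjusted threshold by edgeR or DESeq2. Shh, the ligand made by the epithelium, was at 91.7, 113, 56.2 and 71.9 CPM in controls 1 to 4 and 34.3, 70.8, 59.7 and 59.5 CPM in TO 1 to 4. The 3 compared TO lungs lay below their controls, but control 3 lay below all 3 of them. Gli1, a transcriptional effector and target of the pathway, had the same arrangement, at 48.5, 44.9, 18.8 and 52.6 CPM in controls 1 to 4 and 30.9, 30.1, 25.9 and 44.6 CPM in TO 1 to 4, with control 3 lowest of all. For Ptch1, the receptor and a further target, the log2 fold change was -0.37 ± 0.16 (SE; adjusted p = 0.907, edgeR). Smo, the signal transducer, was at -0.28 ± 0.15, and Hhip, the secreted inhibitor, at 0.04 ± 0.24 (log2 fold changes with SE). Gli2, another transcriptional effector, was also lower in TO lungs without overlap in the 6 libraries, and the other 9 genes of the list overlapped, beside 5.82% of all genes lower without overlap.

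Meox2 (chr12:37108540-37179534, plus strand), a homeobox factor of mesoderm and vessels, was at 65.2, 83.5, 69.1 and 53.8 CPM in controls 1 to 4. TO 1 to 4 held 37.8, 85.5, 64.0 and 47.7 CPM. Control 2 and TO 2 were the 2 highest libraries and nearly equal. Its log2 fold change was -0.04 ± 0.22 (SE; adjusted p = 0.99, edgeR), but 0.15 without control 2 and 0.15 without TO 4.

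Osr1 (chr12:9570116-9581500, plus strand) was at 12.7, 11.8, 12.6 and 10.1 CPM in controls 1 to 4. Its TO values were 10.3, 15.4, 12.9 and 19.4 CPM, the first of these from 3 reads. The 3 deep TO lungs lay above all 4 controls, TO 3 by a narrow margin over control 1, whereas TO 1 lay among the controls. Its log2 fold change was 0.47 ± 0.21 (SE; unadjusted p = 0.0509, adjusted p = 0.907, edgeR), and it stayed between 0.30 and 0.67 over the 19 alternatives tried.

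Prrx1 (chr1:163245119-163313710, minus strand), a homeobox factor of limb, head and fibroblast mesenchyme, was at 32.5, 22.5, 38.6 and 27.7 CPM in controls 1 to 4. In TO 1 to 4 it stood at 51.5, 39.7, 41.4 and 39.7 CPM. All 4 TO libraries were above all 4 controls, by a narrow margin over control 3, and the value of TO 1 came from 15 reads. The 3 compared TO lungs were also close to each other, at 40.2 ± 0.967 CPM against 27.5 ± 5.01 CPM in control (SD, n = 3 each). The log2 fold change was 0.55 ± 0.16 (SE; unadjusted p = 0.00676, adjusted p = 0.907, edgeR), or 1.46-fold, and 0.41 ± 0.19 (unadjusted p = 0.0538) with control 3 added. Where specimen names share a number the difference was 0.82 for control 2 and TO 2, 0.10 for control 3 and TO 3, and 0.40 for TO 4 against the mean of controls 1 and 4 (log2 CPM, no test). DESeq2 gave an adjusted p of 0.272, and over all 19 alternatives the fold change lay between 0.41 and 0.69.

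Twist1 (chr12:33957671-33959829, plus strand) was the least abundant factor, with 500 read pairs in all 8 libraries. Its level was 2.36, 1.79, 1.41 and 2.10 CPM in controls 1 to 4 and 10.3, 2.14, 3.14 and 4.09 CPM in TO 1 to 4. TO 2 lay below control 1, so the groups overlapped, and the highest value, that of TO 1, came from 3 reads. The log2 fold change was 0.59 ± 0.37 (SE; adjusted p = 0.907, edgeR) in the 6 libraries and 0.91 ± 0.44 in all 8. With 1 of the 6 left out it ran from 0.34 without TO 4 to 0.80 without TO 2. Where specimen names share a number the difference was 0.25 for control 2 and TO 2, 1.11 for control 3 and TO 3, and 0.85 for TO 4 against the mean of controls 1 and 4 (log2 CPM, no test). In all 8 libraries edgeR gave Twist1 an unadjusted p of 0.0415 with the replicate number as a block, beside 2.74% of genes higher at an unadjusted p under 0.05, and of 0.0423 with the specimen number as a block, beside 3.08%. Without a block it was 0.0616 in all 8, and in the 6 libraries the edgeR unadjusted p was 0.147 without a block, 0.232 with the replicate number and 0.148 with the specimen number.

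**Figure D3:**
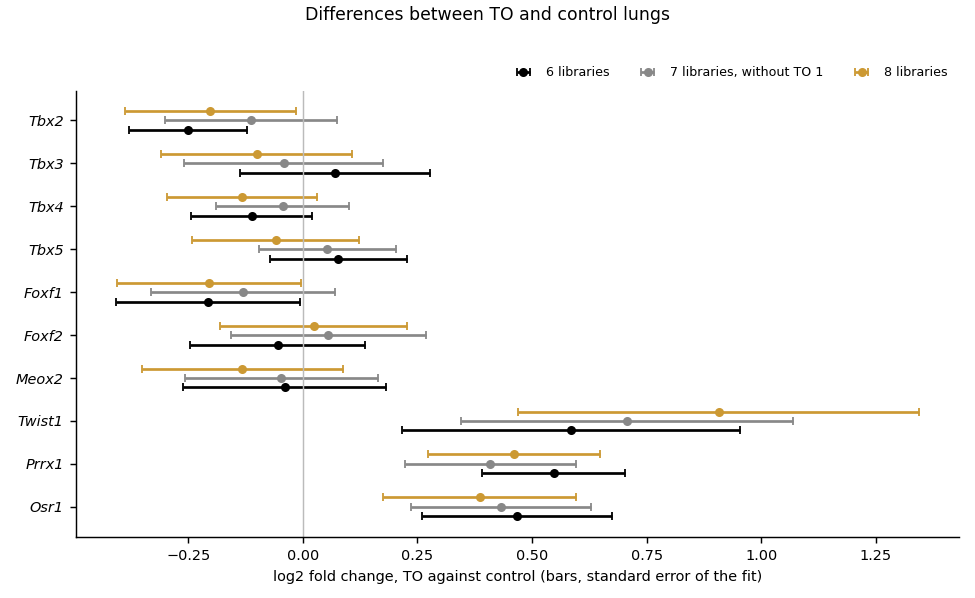
Log2 fold change of each factor (horizontal axis, bars the standard error of the fit) in the 6 libraries compared (black), in 7 libraries without TO 1 (grey) and in all 8 (yellow). Twist1, Prrx1 and Osr1 lie above 0 in all 3 fits, and Tbx3, Tbx5 and Foxf2 have estimates on both sides of 0.

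Connective tissue of muscle and limb also makes Prrx1 and Twist1, so skeletal muscle markers are given beside them. The 10 markers summed to 137, 23.5, 176 and 135 CPM in controls 1 to 4 and 2754, 217, 153 and 313 CPM in TO 1 to 4. TO 1 stood far above the rest and control 2 far below, and in the 6 libraries compared the sums were higher in each TO lung than in any control. That separation rested on Ckm, the muscle creatine kinase, which heart muscle also makes and which held 130 of the 176 CPM in control 3. Without Ckm, a choice made after the sums were seen, the 9 other markers summed to 117, 14.8, 46.2 and 55.6 CPM in controls 1 to 4 and 2469, 164, 82.9 and 175 CPM in TO 1 to 4, so the groups overlapped at control 1 and TO 3. Control 2 was the lowest library and TO 1 the highest for either sum, as for Prrx1. All 10 markers had fold changes above 0 (median 1.28, log2), 0 passed the adjusted threshold by edgeR or DESeq2, and Myod1 alone had an unadjusted p under 0.05. Myod1 and Pax7 reached 5 reads in 1 of the 3 compared controls and in all 3 TO lungs, so they were tested because of the TO lungs. Ckm was the most abundant over the 6 libraries compared and Myh8, a developmental myosin heavy chain, in TO 1, at 285 and 852 CPM there, and the defining factor Myod1 was at 0 in controls 3 and 4 and in TO 1. Among TO 2 to 4, Osr1 had the order of either sum, highest in TO 4 and lowest in TO 3. Prrx1 was instead highest in TO 3, at 41.4 CPM, and Twist1 was highest in TO 4 but lowest in TO 2. Over all libraries Twist1 was highest in TO 1, like either sum, but lowest in control 3, at 1.41 CPM. TO 1, highest for either sum, lay among the controls for Osr1, and the lowest control for Osr1 was control 4, not control 2. The part of muscle in the Prrx1, Twist1 and Osr1 levels was not tested.

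The promoter of Prrx1 is shown because its groups were apart in all 8 libraries. These are 190 bases of the RefSeq entry on the minus strand, chr1:163313711-163313900 (GRCm38.p6), that end where the annotated gene begins.
Prrx1: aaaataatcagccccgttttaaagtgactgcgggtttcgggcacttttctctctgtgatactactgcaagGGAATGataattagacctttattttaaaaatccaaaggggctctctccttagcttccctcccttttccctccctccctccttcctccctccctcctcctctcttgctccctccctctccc
Capitals mark the match to a TEAD motif, CATTCC, read on the other strand, at bases 71 to 76. Entries matched 5 of the 10 factors, Prrx1, Tbx4, Twist1, Meox2 and Foxf2, with none for Tbx2, Tbx3, Tbx5, Foxf1 and Osr1. In the first 190 bases of these 5, on either strand, CATTCC was found in Prrx1 alone, beside 10.2% of all 32851 promoters. CAGCTG, an E-box, was found in Tbx4 alone, beside 9.81%. The Tbx4 entry belongs to a start site 10343 bases inside the annotated gene, whereas those of Twist1, Meox2 and Foxf2 lie at the annotated start and that of Prrx1 60 bases inside it. The T-box motif GGTGTG (12.7% of all promoters), the forkhead motif TGTTTAC (2.49%) and the E-box CATATG (2.83%) had no match in the 5, and no match overlapped another motif.

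Genes are compared in level here per length of exon, in transcripts per 1000000 (TPM), averaged over the 7 deep libraries. Tbx2 led at 418 ± 74.2 TPM (SD, n = 7), followed by Tbx4 (174 ± 21.5), Foxf1 (156 ± 31.0), Tbx5 (118 ± 13.4), Meox2 (101 ± 19.4), Foxf2 (62.1 ± 12.4), Tbx3 (59.7 ± 12.4), Osr1 (23.4 ± 5.27), Prrx1 (11.1 ± 2.35) and Twist1 (5.35 ± 2.04). Tbx2 stood apart from Tbx4, with no shared range, and so did Tbx3 from Osr1 and Osr1 from Prrx1. The ranges of the other neighbours overlapped. Tbx4 was above Foxf1, Foxf1 above Tbx5 and Tbx5 above Meox2 in 6 of 7 libraries each, and Foxf2 was above Tbx3 in 4 of 7. This order rests in part on the length used, that of all annotated exons, 11066 bases for Prrx1 and 2066 for Osr1. In CPM, without length, Prrx1 was above Osr1 in every library. The order also rests in part on the pairs set aside by the unstranded counting. With the counts of both strands summed, an alternative chosen after seeing the data, Foxf1 (145 ± 27.6 TPM) was above Tbx4 (142 ± 18.9) in 5 of 7 libraries, so these neighbours changed places, and Foxf2 (64.0 ± 11.9) was above Tbx3 (52.5 ± 11.2) in 6 of 7 (SD, n = 7). Tbx2 ranked 262 and Twist1 13266 among the 55144 genes with a known length.

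**Figure D4:**
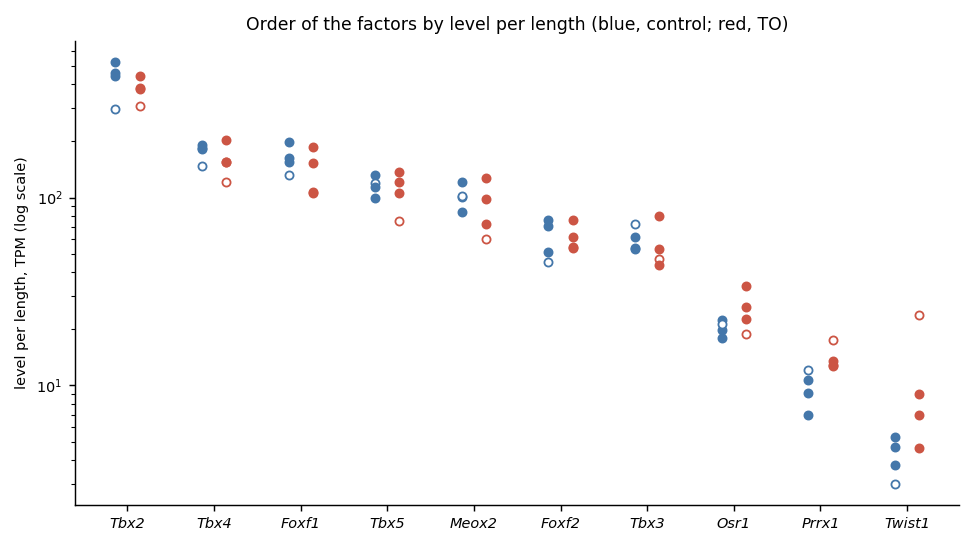
Level per length of each factor in TPM (vertical axis, log scale) in control (blue) and TO (red) libraries, open points for control 3 and TO 1. Gaps without shared range in the 7 deep libraries separate Tbx2 from Tbx4, Tbx3 from Osr1 and Osr1 from Prrx1.

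The paralogues of the other members had lower mean levels than the factors they resemble. Meox1 was at 14.9 TPM against 101 for Meox2, Prrx2 at 6.68 against 11.1 for Prrx1, Twist2 at 2.13 against 5.35 for Twist1 and Osr2 at 3.56 against 23.4 for Osr1, each a mean over the 7 deep libraries. Prrx2 was nevertheless above Prrx1 in 2 of the 7, at 8.15 against 6.98 TPM in control 2 and 10.8 against 9.16 TPM in control 4, while the other 3 paralogues were below in all 7. In CPM Prrx2 was at 2.32, 4.65, 1.71 and 5.78 in controls 1 to 4 and 3.43, 3.27, 1.86 and 6.11 in TO 1 to 4, without the separation seen for Prrx1. Of the 4 paralogues 3 had fold changes above 0 and 1 below (median 0.13, log2), and 0 passed the adjusted threshold by edgeR or DESeq2, or had an unadjusted p under 0.05. Meox1 was at 0.00981 ± 0.29, Prrx2 at -0.17 ± 0.49 and Osr2 at 0.26 ± 0.45 (log2 fold changes with SE).

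Fgf10 and its relatives, WNT and BMP signals, and genes that read them out made up 22 genes, all tested. Fold changes of 12 were above 0 and of 10 below (median 0.05, log2), 0 passed the adjusted threshold by edgeR or DESeq2, and at an unadjusted p under 0.05 Grem1 and Sfrp1 were higher and Fgf18 lower. Fgf10 itself, downstream of Tbx4 and Tbx5, was at 59.0, 64.5, 82.0 and 58.1 CPM in controls 1 to 4 and 34.3, 74.2, 85.9 and 54.2 CPM in TO 1 to 4. Its groups overlapped, with TO 3 and control 3 at the top. The most abundant were Fgfr2 (0.00822 ± 0.10, log2 fold change with SE), Etv5 (-0.25 ± 0.15) and Bmpr1a (0.10 ± 0.12). Fgf18, a growth factor of the distal mesenchyme, was at 18.7, 17.1, 13.9 and 16.1 CPM in controls 1 to 4 and 24.0, 9.48, 11.6 and 13.6 CPM in TO 1 to 4. The 3 deep TO lungs lay below all controls, TO 4 by a narrow margin, and TO 1 above them.

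Another 22 mesenchymal transcription factors, all tested, had 10 fold changes above 0 and 12 below (median -0.03, log2), and 0 passed the adjusted threshold by edgeR or DESeq2, or had an unadjusted p under 0.05. Among the most abundant were Zeb2 (-0.05 ± 0.13) and Tcf21 (0.24 ± 0.18), as log2 fold changes with SE. Of 20 stromal markers, 10 were above 0 and 10 below (median -0.000683, log2), with Thy1 the 1 gene at an unadjusted p under 0.05, and Eln (0.58 ± 0.28), Col3a1 (0.14 ± 0.13) and Mfap4 (-0.09 ± 0.22) the most abundant. Eln was at 10243 CPM in control 3, above every TO library, and its log2 fold change was -0.12 ± 0.42 (SE) in all 8 libraries. Of 12 endothelial markers, 6 were above 0 and 6 below (median -0.01), led by Cdh5 (-0.14 ± 0.19), Pecam1 (-0.03 ± 0.14) and Kdr (0.00938 ± 0.14), with Plvap lower at an unadjusted p under 0.05. Of 11 epithelial markers, 6 were above 0 and 5 below (median 0.06), led by Sftpc (0.18 ± 0.30), Sftpb (0.38 ± 0.32) and Ager (-0.09 ± 0.30), with Epcam lower at an unadjusted p under 0.05. None of these markers passed the adjusted threshold by edgeR or DESeq2.

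**Figure D5:**
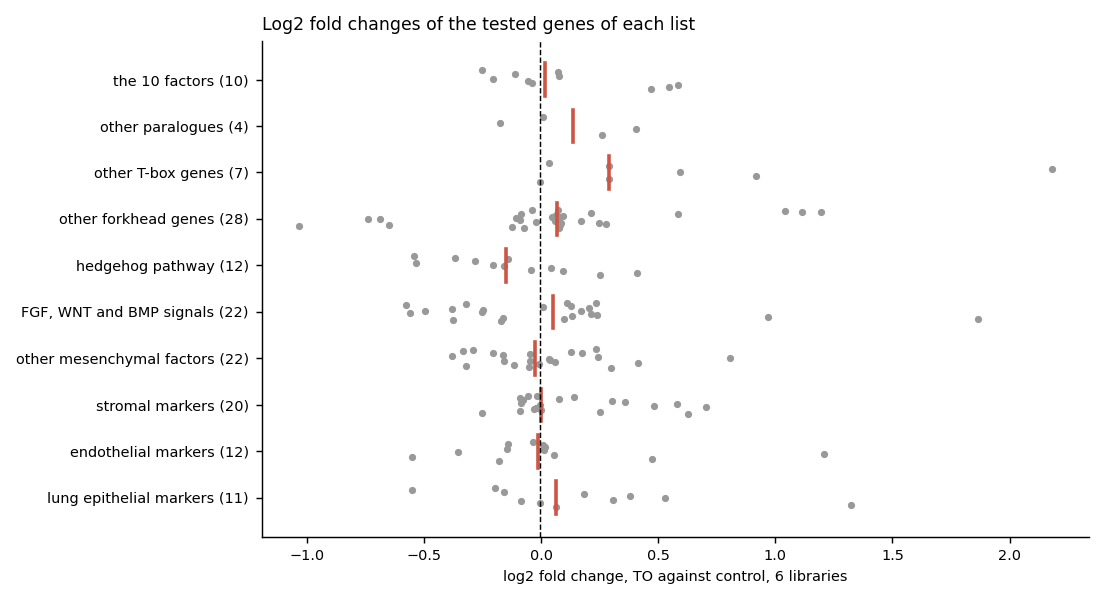
Log2 fold change, TO against control in the 6 libraries compared (horizontal axis), of the tested genes of each list (grey points, number in parentheses) with the list's median (red bar). The dashed line is the median of all 21859 genes, and the 10 factors have a median of 0.02.

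Markers of tissues beside the lung were summed in each library too. Ventricular muscle markers summed to 81.8, 112, 1069 and 856 CPM in controls 1 to 4 and 3025, 143, 184 and 2292 CPM in TO 1 to 4, Myh7 the most abundant. Hepatocyte markers, led by Alb, summed to 756 CPM in control 1 and 307 CPM in TO 4, and to at most 75.5 CPM in the other 6 libraries. Thymocyte markers, led by Rag1, summed to 237 CPM in TO 1, 16.0 CPM in TO 3 and at most 2.50 CPM elsewhere. Mesothelial markers, led by Msln, ran from 206 CPM in TO 1 to 576 CPM in control 3, and cartilage markers, led by Matn4, from 94.1 CPM in control 3 to 234 CPM in control 2. In the 6 libraries compared, fold changes above 0 were found for 5 of 5 tested ventricular, 6 of 6 mesothelial, 2 of 5 cartilage and 2 of 4 hepatocyte markers, and 0 passed the adjusted threshold by edgeR or DESeq2. The ventricular sum was highest in TO 4, whereas TO 2 and TO 3 lay below control 4. Irx4, a ventricular marker, reached 5 reads in 1 of the compared controls and in 2 of the compared TO lungs. In all 8 libraries Msln (-0.26), Upk1b (-0.25) and Lrrn4 (-0.12) of the mesothelial markers were below 0 (log2). From 6 to 8 libraries the mesothelial median turned from 0.20 to -0.04 and the cartilage median from -0.26 to 0.00513 (log2). At an unadjusted p under 0.05 in the 6 libraries, Muc16 of the mesothelial markers was higher and Afp of the hepatocyte markers lower, both with overlap between the groups. Afp was at 204 CPM in control 1 but at 0.488 and 6.39 CPM in controls 2 and 4. TO 2 to 4 held 7.52, 4.83 and 3.61 CPM of it, so control 1 carried the difference. Of 6 thymocyte markers 4 were not tested, and Cd4 passed the filter through the TO lungs alone, so no count is given for them.

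Of the genes nearest to the factors on the chromosome, those with more reads are described here. 2610027K06Rik, 327 bases before Tbx2 on the opposite strand, was at 7.18, 10.9, 5.03 and 10.1 CPM in controls 1 to 4 and 0, 9.16, 5.95 and 10.9 CPM in TO 1 to 4. It was lowest in control 3 among the deep libraries, as Tbx2 was. 1700018A04Rik, 23 bases before Foxf2 on the opposite strand, was at 4.38, 5.17, 2.18 and 5.09 CPM in controls 1 to 4 and 3.43, 4.71, 4.83 and 3.89 CPM in TO 1 to 4, levels that are understated because its unstranded count of 868 pairs lacks the 640 given above. Gm43050, 747 bases before Tbx5, had a log2 fold change of -0.22 ± 0.21, Mthfsd after Foxf1 -0.21 ± 0.16, Hdac9 after Twist1 0.17 ± 0.26 and Gorab after Prrx1 -0.13 ± 0.19 (SE). These 6 genes had adjusted p-values of 0.91 or more by edgeR. Gorab overlapped between the groups, at 18.0, 21.7, 13.7 and 21.9 CPM in controls 1 to 4 and 3.43, 23.5, 16.7 and 16.2 CPM in TO 1 to 4. Few reads fell on Agmo after Meox2 (128 over the 8 libraries), Gm16064 before Tbx3 (41), Gm11444 between Tbx2 and Tbx4 (27) and Tbx3os2 after Tbx3 (19), and the groups overlapped for each. Among the nearest protein-coding genes, which lie farther off for several factors, Ttc32, Brip1 and Rbm19 were lower in TO lungs without overlap in the 6 libraries, as were 5.82% of all genes. The other way went Foxc1, after Foxf2, at 1.20 ± 0.54, and Med13l, before Tbx3, at 0.34 ± 0.17 (log2 fold changes with SE). Both had overlapping groups, and Med13l was at -0.03 in all 8 libraries. Ttc32, 528127 bases before Osr1, was at 8.01, 7.15, 7.18 and 6.11 CPM in controls 1 to 4 and 3.43, 5.0, 5.87 and 5.06 CPM in TO 1 to 4, below the controls in all 4 TO libraries (log2 fold change -0.42 ± 0.23, SE; adjusted p = 0.907, edgeR). Brip1, 142040 bases after Tbx4, had a log2 fold change of -0.69 ± 0.29 (SE; unadjusted p = 0.0406, adjusted p = 0.907, edgeR), and Rbm19, after Tbx5, one of -0.21 ± 0.18. Both overlapped once control 3, lowest for each, was added.

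The genes most like the 3 factors that varied most across the 7 deep libraries were found by the root mean square difference of mean-centred log2 CPM, among 15895 genes of mean CPM 1 or more. For Prrx1 they were Atg4a (0.06), Dnah5 (0.09) and Tmem252 (0.12). For Twist1 they were Agtr2 (0.16), Iba57 (0.18) and Cd300lf (0.18), and for Tbx3 Anxa8 (0.08), Slc39a8 (0.08) and Tekt1 (0.09). Atg4a, an autophagy protease, was at 8.27, 6.21, 9.40 and 6.91 CPM in controls 1 to 4 and 10.3, 10.4, 11.1 and 10.1 CPM in TO 1 to 4, the first of these from 3 reads. Agtr2, an angiotensin receptor of fetal mesenchyme, was at 36.5, 22.1, 25.6 and 29.2 CPM in controls 1 to 4 and 68.7, 32.5, 46.4 and 54.6 CPM in TO 1 to 4. The likeness is a description over 7 libraries, with no test, and the order of those libraries follows from the choice of genes.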

How the data were processed

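The authors made NexteraXT libraries from RNA of the 8 lungs, sequenced read pairs and aligned them to GRCm38 with STAR. What they deposited is the raw count of pairs for every gene, unstranded and by strand. Of 55385 IDs, 55144 matched GENCODE M21 without the version. The unstranded counts were used, with genes of at least 5 reads in 3 or more libraries. TO was compared with control in edgeR 4.0.16 (R 4.3.3) by the quasi-likelihood test with TMM scaling and no block, Benjamini-Hochberg adjusted over all genes, at a threshold of 0.1. DESeq2 1.42.0 and limma 3.58.1 were alternatives. DESeq2 was the tool of the study, and edgeR was used in its place for the main test. CPM, and log2 CPM with a prior count of 2, used TMM factors of all 8 libraries, and TPM the summed exon length of each gene. Paralogue ratios were tested by exact permutation over libraries. Figures were drawn in Python 3.11.15, and the fit was tested on simulated data. Reads carry no molecular identifiers. Read pairs on no gene made up 9.64% to 14.9% and those on more than 1 gene 5.00% to 5.74%.

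The members and lists were chosen with earlier results of these data known. Named genes were the 10 factors, the 3 of highest mean CPM in each other list, the nearest counted genes on each side of a factor, and the genes most like the 3 factors of largest SD. A single gene among those of highest mean CPM is not reported here, though the list counts include it. Fgf10, Twist2, Nppa, Gli2, Myh8, Pax7, Ttc32, Brip1, Rbm19, Foxc1, Med13l, Lrrn4, genes with no read and those named for an unadjusted p were chosen after their values were seen.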

Additional observations from a re-analysis of the deposited data

Results flagged for a closer look

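Among the 20 groups of 4 libraries examined (10 factors in control and in TO lungs), 1 library stood apart from the others of its group. Prrx1 was at 51.5 CPM in TO 1, above the 3 other TO libraries at 39.7, 41.4 and 39.7 CPM. The value rests on 15 reads in the library with 270078 counts, where 1 read is 3.43 CPM, so the gap is a few reads. Chance sets apart about 1 group in 20 where libraries are of like depth, and TO 1 is far shallower than the others.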

How the results depend on the processing

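None of the 10 factors was called by edgeR or under any of the 19 alternatives, DESeq2 and limma-voom among them, and the count at an unadjusted p under 0.05 ran from 0 with control 3 added (2.0% of all genes) to 3 without TO 2 (4.89%) and with a block for the specimen number in the 6 libraries (6.29%). Without TO 2 the 3 at an unadjusted p under 0.05 by edgeR were Prrx1, higher, and Tbx2 and Tbx4, lower. Tbx2, Tbx4, Twist1, Prrx1 and Osr1 kept the sign of their fold change under all 19. With 1 library left out Tbx2 ran from -0.34 to -0.13, Tbx4 from -0.27 to -0.02 and Twist1 from 0.34 to 0.80. Prrx1 ran from 0.42 to 0.69 and Osr1 from 0.30 to 0.61. The count of genes called was 0 with the 6 libraries, 44 by DESeq2, 40 with no filter, and 0 to 144 with 1 library left out. The median of the 10 ran from -0.22 to 0.16 with 1 library left out.

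The labels do not say that same-numbered libraries are pairs, though they share a specimen number. Their deviations from the group means correlated across genes at 0.05, 0.13, 0.16 and 0.07 for numbers 1 to 4, and at 0.12, 0.20 and 0.11 for 2 to 4 without TO 1, and control 1 was closer to TO 4, of the same specimen number, than to TO 1. The replicate block called 219 genes in 6 libraries, where it leaves 1 residual degree of freedom, and 3 in all 8, and the block for the specimen number 0 in 6 and 0 in all 8, with 0 factors in any and an adjusted p of 0.101 for Prrx1 with the replicate block in the 6. With the replicate block, log2 fold changes of the other sign were, in the 6 libraries, -0.0159 for Tbx5, 0.0864 for Foxf1 and 0.0843 for Foxf2, and, in all 8, -0.15 for Tbx3, -0.10 for Tbx5 and 0.0905 for Foxf2.

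Signs also turned in all 8 libraries (Tbx3 -0.10, Tbx5 -0.0596, Foxf2 0.0235), with control 3 added (Tbx3 -0.0416, Foxf2 0.0555), with a block for the number in the specimen name in all 8 (Tbx3 -0.16, Tbx5 -0.0721, Foxf2 0.0244), and on 1 strand (Foxf2 0.0171, Meox2 0.0165). With 1 library left out the ranges were -0.22 to 0.25 for Tbx3, -0.0325 to 0.22 for Tbx5, -0.41 to 0.00265 for Foxf1, -0.22 to 0.0622 for Foxf2, -0.27 to 0.15 for Meox2 and -0.35 to 0.00970 for the Foxf1 to Foxf2 ratio. The causes were not tested. The depth of TO 1 limits its values to steps of 1 read, 3.43 CPM.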
